A study of Homo sapiens with 16 samples.

Results

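The comparison described here asked which genes responded to the doxycycline label in HCT116 cells carrying an NAA40 short hairpin RNA differently from HCT116 cells carrying a scrambled hairpin. HCT116 is an established human colorectal carcinoma line, and both derivative lines, called NAA40-KD and SCR (Scramble), were stable lines in which doxycycline (dox) was to switch the hairpin on. Each line was sampled under a (−dox) and a (+dox) label, with 4 independent RNA samples in each of the 4 groups, and the treatment was dox at 1 μg/ml for 96 h. The value computed for each gene was (NAA40-KD (+dox) minus NAA40-KD (−dox)) minus (SCR (+dox) minus SCR (−dox)) on the log2 scale, called the interaction below, and it used all 16 of the 16 libraries. A standing difference between the lines and a change with the dox label that is equal in both lines cancel in it. Of the 33937 genes in the deposited count matrix, 14392 had more than 1 CPM, a count scaled to library size, in at least 4 of the 16 libraries and were tested. At that limit *CAPN13* was just inside, with 1.01 CPM as its 4th highest value. One hairpin line was sequenced for NAA40, so an effect of this hairpin or of this line's derivation on the response cannot be told apart from an effect of the NAA40 level.

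NAA40 is the N-terminal acetyltransferase that acetylates the first serine of histones H2A and H4, in most cases while the protein is still on the ribosome. Enzymes of this family transfer an acetyl group from acetyl-CoA to the start of a protein. NAA40 is known for its very narrow choice of substrates, whereas most of its relatives act on many proteins.

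*NAA40* itself (ENSG00000110583, chromosome 11 from 63938959 to 63957328 on the plus strand of GRCh38, overlapping no other annotated gene) checked the labels. It was at 12.6, 11.6, 9.27 and 13.8 CPM in libraries with the NAA40-KD (−dox) label and at 31.4, 29.3, 28.6 and 31.9 CPM in those labelled NAA40-KD (+dox). In the SCR line it was at 34.5, 25.9, 29.1 and 28.2 CPM under the (−dox) label and at 26.1, 28.4, 26.2 and 28.8 CPM under the (+dox) label. The 4 libraries labelled NAA40-KD (−dox) were therefore low and overlapped with no other group, which goes against their label, since dox was to switch the hairpin on. For this reason groups are called by their labels throughout, as the libraries labelled (−dox) or (+dox), and every sign below rests on those labels. A positive interaction means a gene moved the way *NAA40* did, lower in the libraries labelled NAA40-KD (−dox) once the SCR line's own change was subtracted. If the (+dox) and (−dox) labels were exchanged in both lines, the sign of every interaction, that of *NAA40* included, would turn.

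The interaction of *NAA40* was 1.46 (SE 0.18) on the log2 scale with an adjusted p of 0.000220 by edgeR's quasi-likelihood test, made up of a change of 1.36 in the NAA40-KD line and −0.10 in the SCR line. With log2(CPM + 1) values, an exact two-sided permutation test that moved the dox labels within each line gave p = 0.00653 over 4900 arrangements, of which the smallest possible p is 0.000408. The exact permutation test within the NAA40-KD line gave p = 0.0286, the smallest that 4 against 4 allow, and within the SCR line it gave p = 0.457.

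One library needs to be named before the counts. NAA40-KD (−dox) replicate 4 lay at 103.5 on the first principal component of log2 CPM, which held 39.2% of the variance, while the other 15 libraries lay between −21.8 and 8.48. Its root mean square deviation from its group was 0.694 log2 units, against 0.171 to 0.303 in the others. Mitochondrially encoded genes held 5.03% of its counts and cytosolic ribosomal protein genes 7.94%, against 6.42% to 14.3% and 4.74% to 7.10% in the others. Its total of 12821689 counts was within the range of all libraries, 11065606 to 13855486. Since that library is 1 of the 4 with low *NAA40*, the counts of calls over all genes and in the gene lists are also given without it. Of 10 markers of colorectal epithelium 8 were above 1 CPM (*EPCAM* at 257 to 397 CPM and *CDH1* at 119 to 177 CPM), whereas *CDX1* and *VIL1* were at or near 0, at no more than 0.0742 and 0.273 CPM. Leukocyte markers were all under 1 CPM, the endothelial markers *VWF* and *KDR* reached 2.80 and 1.89 CPM, and of the fibroblast markers only *COL1A1*, at 56.7 to 195 CPM, and *PDGFRB*, at no more than 1.10 CPM, reached 1 CPM.

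**Figure D1:**
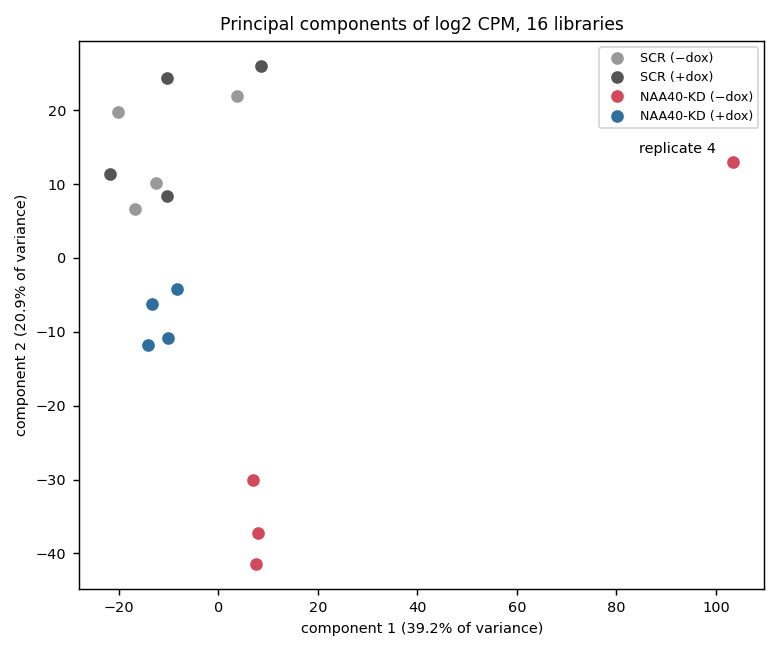
Principal components of log2 CPM over the 14392 tested genes, 1 point per library, coloured by labelled group. NAA40-KD (−dox) replicate 4 sits at 103.5 on component 1, and the other 3 libraries of its label sit lowest on component 2.

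A gene was called when its adjusted p was under 0.05 and its absolute interaction above 1, which is a doubling of the ratio between labels. Of the 14392 genes, 646 (4.49%) were called, 269 (1.87%) with a positive and 377 (2.62%) with a negative interaction. Without the threshold on size 1327 genes (9.22%) had an adjusted p under 0.05, 620 positive (4.31%) and 707 negative (4.91%), so 681 of them had an absolute interaction of 1 or less. At an unadjusted p under 0.05 with the threshold on size there were 1007 (7%). The median interaction over all tested genes was −0.05, and 80% of genes lay between −0.74 and 0.61. Among called genes 11 positive and 36 negative ones passed 2 in absolute size.

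The changes behind these values lay almost wholly in the NAA40-KD line. In the same fit 754 genes (5.24%) changed between labels in the NAA40-KD line at both thresholds, and 0 in the SCR line by edgeR. DESeq2 and limma-voom also called 0 in the SCR line. In that line 192 (1.33%) had an unadjusted p under 0.05 by edgeR, 17 of them (0.118%) past the threshold on size. The 2 lines share 1 fit. Without NAA40-KD (−dox) replicate 4 the 192 became 694 of 14302 (4.85%), with 0 called at both thresholds. Over genes with at least 5 CPM in a group the SD of the change was 0.462 in the NAA40-KD line and 0.130 in the SCR line. These SDs include NAA40-KD (−dox) replicate 4 and were not computed without it. Called positive genes had a median change of 1.17 in the NAA40-KD line and −0.13 in the SCR line, and called negative genes −1.16 and 0.18. The small SCR changes were opposite in sign to the interaction in 87.4% of positive and 87.0% of negative genes, and in 66.8% of all genes tested, and since each SCR change is itself a term of the interaction, calling a gene favours that sign. Only 1 of the 269 and 5 of the 377 called genes had an absolute SCR change above 1. Across the 14392 genes the 2 lines' changes, which rest on different libraries, had a Pearson r of −0.17 and a Spearman rho of −0.20, a description over genes that are not independent.

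**Figure D2:**
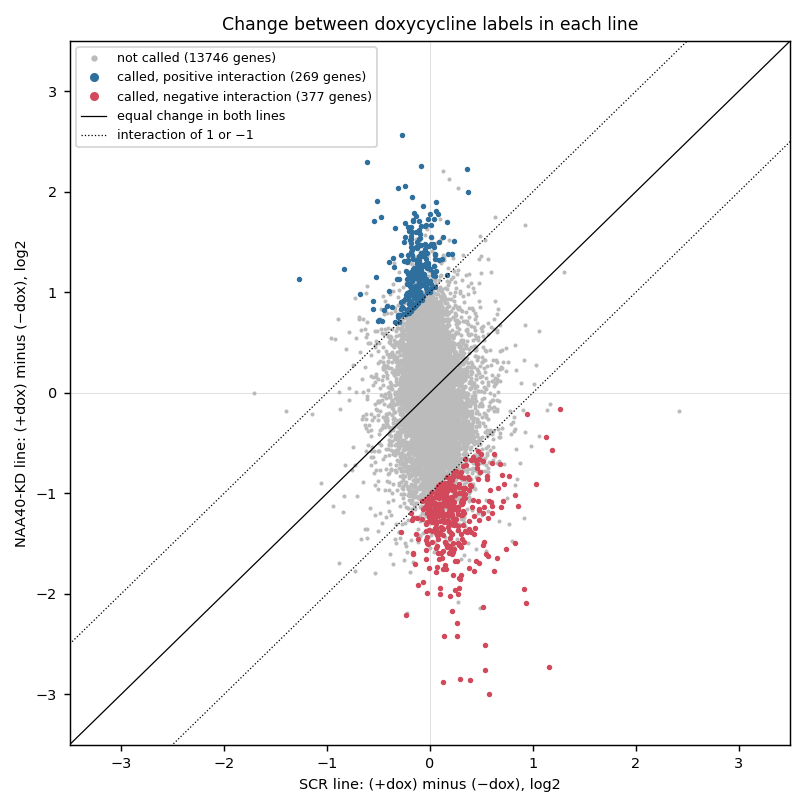
Change between dox labels (log2) in the SCR line on the x axis and the NAA40-KD line on the y axis, 1 point per tested gene. The 269 called positive genes and 377 called negative genes spread along the y axis at small SCR changes.

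Without NAA40-KD (−dox) replicate 4, 14302 genes were tested and 719 (5.03%) were called at both thresholds, 329 positive (2.3%) and 390 negative (2.73%), and 600 (4.2%) in the NAA40-KD line. At an adjusted p under 0.05 alone there were 3467 (24.2%), 1703 positive (11.9%) and 1764 negative (12.3%), against 1327 with the library. All 269 called positive genes kept their sign and an adjusted p under 0.05 without it, 207 of them past both thresholds. So did 368 of the 369 called negative genes still tested, 267 of them past both thresholds.

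GC content moved with the interaction over 16 libraries. The median GC content of the longest transcript was 43.2% in called positive genes, 56.1% in called negative genes and 48.8% in all tested genes, and the median transcript lengths were 4084, 2694 and 3494 bases. Over all genes, the median interaction went from 0.18 among the 2870 genes with the lowest GC content (27.8% to 41.1%) to −0.36 among the 2870 with the highest (58.5% to 74.4%). Without NAA40-KD (−dox) replicate 4 the medians over 5 such bins lay between −0.04 and 0.02. In the lowest bin 95 genes were called positive and 16 negative, and in the highest 9 and 138. With an offset for GC content in the fit, 789 genes were called at both thresholds and 4181 at an adjusted p under 0.05 alone. Of 99 results named by gene, 98 kept their sign and side of the threshold under this offset, 1 lost its adjusted p under 0.05 and 0 changed sign.

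**Figure D3:**
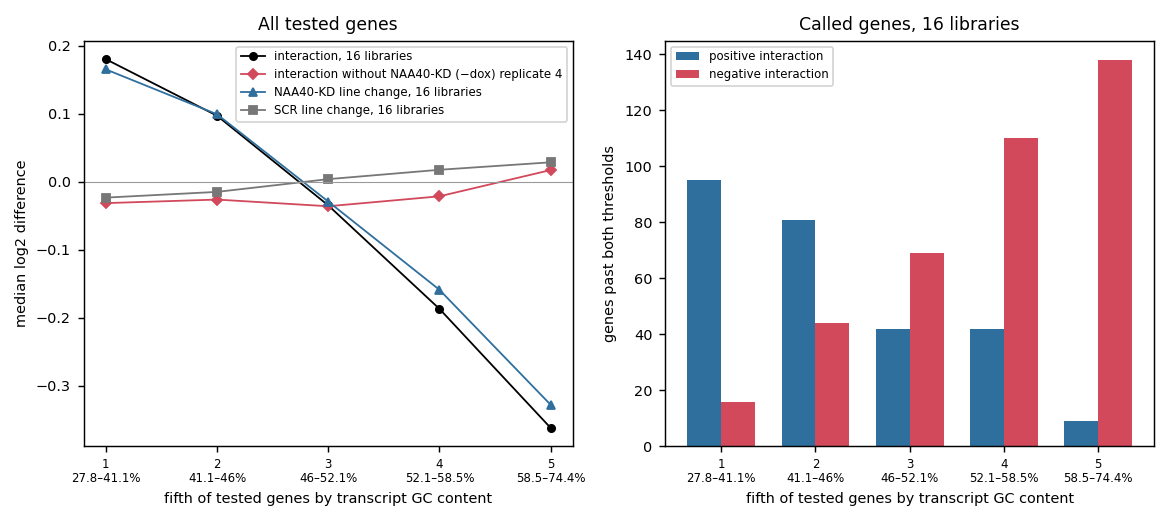
Left, the median log2 difference in 5 bins of tested genes by GC content, for the interaction with 16 and 15 libraries and for each line's change. Right, the number of genes past both thresholds in each bin with 16 libraries. The interaction falls from 0.18 to −0.36 across the bins with 16 libraries and stays between −0.04 and 0.02 with 15.

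Which group stood apart differed between the signs. For each gene, the group whose mean lay farthest from the median of the other 3 was taken. It was NAA40-KD (−dox), the labelled group with low *NAA40*, in 234 of the 269 positive genes (87.0%) and in 250 of the 377 negative genes (66.3%), against 52.0% of all tested genes. It was NAA40-KD (+dox) in 35 (13%) and 122 (32.4%), against 28.7% of all tested genes. Set against the SCR libraries of the same label, NAA40-KD (−dox) lay below without overlap in 242 positive genes (90.0%), as in 11.8% of all tested genes, and above without overlap in 245 negative genes (65.0%), as in 9.73%. NAA40-KD (+dox) lay above SCR (+dox) without overlap in 120 positive genes (44.6%), as in 12.8%, and below it in 200 negative genes (53.1%), as in 13.7% of all tested genes. A part of the negative interactions therefore comes with a low level under the NAA40-KD (+dox) label, where *NAA40* was not low. A part of the positive ones likewise comes with a high level there. The 32.4% of negative genes with that group farthest is near the 28.7% of all tested genes. Within the NAA40-KD line the libraries of the 2 labels did not overlap in 265 of the positive genes (15.1% of all tested genes were so ordered) and 356 of the negative genes (14%). Since calls were made on these libraries, these shares are a description of how the called values are built.

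The largest values were ranked among called genes with a symbol, a mean of at least 5 CPM in a group and no overlap between the NAA40-KD groups. Called genes outside these limits were not ranked. The first positive gene in this ranking was *MYB*, a transcription factor gene that is highly expressed in colorectal carcinoma and in blood progenitors. It was at 1.12, 1.29, 1.09 and 0.659 CPM in libraries with the NAA40-KD (−dox) label and at 4.91, 5.55, 4.87 and 5.27 CPM in those labelled NAA40-KD (+dox). In the SCR line it was at 4.26, 4.90, 3.67 and 5.56 CPM under (−dox) and at 3.38, 3.04, 2.75 and 2.83 CPM under (+dox). Its interaction of 2.90 (SE 0.27, adjusted p = 2.22e-05 by edgeR) was therefore the sum of a higher level under (+dox) in the NAA40-KD line, by 2.29, and a lower one in the SCR line, by −0.61. *MYB* overlaps the annotated antisense gene *MYB-AS1*, and since no source used here says whether counting was stranded, reads of such partners cannot be told apart.

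*FAM111B*, which encodes a protease, was at 2.09, 2.43, 2.63 and 1.24 CPM in libraries with the NAA40-KD (−dox) label and at 10.3 to 15.7 CPM in those labelled NAA40-KD (+dox). The SCR line was at 12.3 to 17.7 CPM under (−dox) and 10.6 to 12.6 CPM under (+dox), so only the first of these groups stood apart, with an interaction of 2.83 (SE 0.28). The other 10 positive genes with the largest values and at least 5 CPM in a group had interactions from 1.78 to 1.94, and in each of them NAA40-KD (−dox) was the lowest group with no overlap. They were *XRCC2* (a recombination factor, 1.94), *MMS22L* (a recombination factor at stalled forks, 1.93), *WDR76* (1.88), the pseudogene *ZNF37BP* (1.87), *NRP1* (neuropilin 1, a co-receptor for semaphorins and VEGF, 1.87), *ZDHHC14* (a palmitoyltransferase, 1.86), *GINS2* (a subunit of the replicative helicase, 1.83), *ESCO2* (the cohesin acetyltransferase of S phase, 1.81), *BRCA2* (1.79) and *UGT8* (galactosylceramide synthase, 1.78). All 12 kept an adjusted p under 0.05 without NAA40-KD (−dox) replicate 4, with values from 1.52 to 2.74, although that library was the lowest of its group in 10 of the 12.

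*NRP1* shows a standing difference between lines that the interaction removes. It was at 2.91, 2.74, 3.06 and 1.24 CPM in NAA40-KD (−dox) and at 10.5 to 12.8 CPM in NAA40-KD (+dox), both below the 13.3 to 26.1 CPM of the 8 SCR libraries. Its change was 2.22 in the NAA40-KD line and 0.36 in the SCR line.

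The first negative gene in the same ranking was *SUSD2*, which encodes a sushi-domain membrane protein. It was at 73.9, 88.9, 73.2 and 158 CPM in libraries with the NAA40-KD (−dox) label and at 20.3, 19.2, 15.4 and 18.9 CPM in those labelled NAA40-KD (+dox). The 8 SCR libraries held 21.8 to 36.2 CPM. Both NAA40-KD groups thus lay outside the SCR range, on opposite sides, and the interaction was −2.56 (SE 0.32, adjusted p = 0.000225 by edgeR), or −2.24 without NAA40-KD (−dox) replicate 4. *CLIC3*, a chloride intracellular channel family gene, was at 17.1, 18.4, 23.4 and 52.8 CPM in NAA40-KD (−dox) and at 5.45 to 5.91 CPM in NAA40-KD (+dox), with 6.55 to 12.5 CPM in the SCR line. Its interaction of −2.55 became −2.06 without that library. The other 9 negative genes named by the rule had interactions from −2.10 to −2.38. They were the orphan nuclear receptor gene *NR4A3* (−2.38), *KRTAP2-3* (−2.27), *PKD1L2* (−2.20), *VWCE* (−2.20), the interferon-induced genes *OASL* (−2.18), *ISG15* (−2.15) and *IFIT1* (−2.10), *MAT1A* (−2.12) and the cardiac troponin C gene *TNNC1* (−2.12). All 11 kept an adjusted p under 0.05 without that library, with values from −1.63 to −2.45. *NR4A3*, at 6.42 to 8.52 CPM in NAA40-KD (−dox), 0.962 to 2.06 CPM in NAA40-KD (+dox) and 2.89 to 4.6 CPM in the SCR line, was the one of the 11 whose farthest group was NAA40-KD (+dox).

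**Figure D4:**
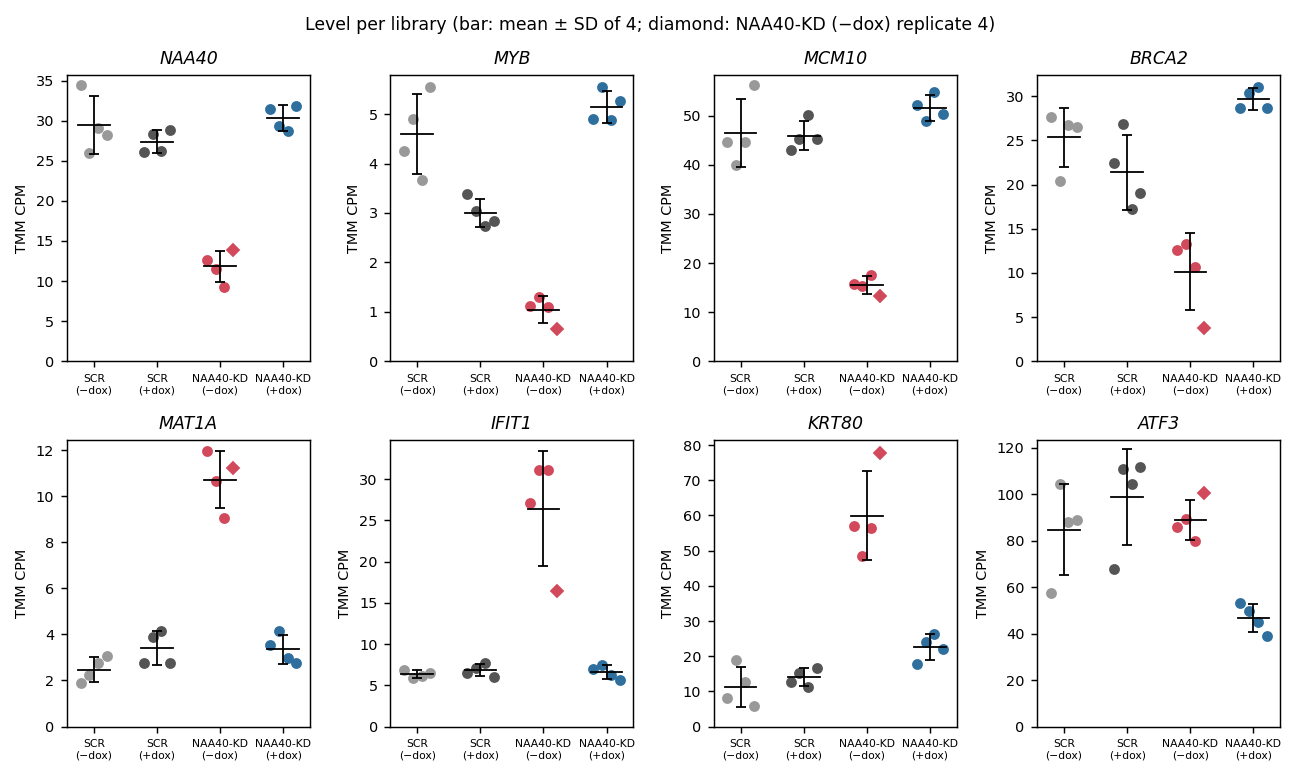
TMM-normalized CPM of 8 genes in each library by labelled group, with the mean ± SD of 4 libraries (bars) and NAA40-KD (−dox) replicate 4 as a diamond. In 7 of the panels the libraries labelled NAA40-KD (−dox) stand apart from the other 3 groups, and for *ATF3* those labelled NAA40-KD (+dox) are the low ones.

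Of the 29 gene lists, that of replication licensing had the largest positive median interaction. Replication starts from the MCM2-7 helicase, which is loaded at origins in G1 and switched on in S phase by CDC45 and the GINS complex. All 28 licensing and helicase genes listed passed the filter, 17 had a positive and 0 a negative interaction at an adjusted p under 0.05 (background 4.31% and 4.91% of all genes), and 11 did not pass the test. Their median interaction was 1.06, with medians of 0.89 in the NAA40-KD line and −0.10 in the SCR line. Without NAA40-KD (−dox) replicate 4 the median was 1.06 and 21 were positive, where the background is 11.9% positive and 12.3% negative, and the counts without it below are to be read beside those shares.

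*MCM10*, which helps to activate the loaded helicase, had the lowest p of the list. It was at 15.8, 15.4, 17.6 and 13.3 CPM in NAA40-KD (−dox), at 52.3, 48.8, 54.9 and 50.3 CPM in NAA40-KD (+dox), at 44.6, 40.0, 44.8 and 56.2 CPM in SCR (−dox) and at 43.0, 45.3, 50.1 and 45.2 CPM in SCR (+dox). The 12 libraries of the other groups overlapped with each other and not with NAA40-KD (−dox), and the interaction was 1.75 (SE 0.18, adjusted p = 3.80e-05 by edgeR), or 1.67 without the library named. *MCM3*, a subunit of the helicase ring, was at 63.1 to 86.3 CPM in NAA40-KD (−dox) and at 150 to 231 CPM in the other 12 libraries (interaction 1.63). *MCM4*, another subunit, had 1.75 and *GINS3* 1.58.

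Fork and chromatin assembly factors that passed the test were positive. Of 33 replication fork genes, all tested, 18 were positive and 0 negative, 29 had a value above 0, and 15 did not pass, with a median of 0.76 (0.77 in the NAA40-KD line, −0.05 in the SCR line), and 26 were positive without NAA40-KD (−dox) replicate 4. *CLSPN* (claspin, which links the fork to the checkpoint kinase CHEK1) was at 14.9, 14.6, 17.1 and 10.8 CPM in NAA40-KD (−dox) and at 28.0 to 49.2 CPM in the other 12 libraries, an interaction of 1.75. The chromatin assembly factor subunits *CHAF1B* and *CHAF1A* had 1.43 and 1.32, and *POLA2*, of the primase complex, 1.41.

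The promoters of *MCM3* and *CLSPN*, 250 bases before to 50 after the RefSeq start on GRCh38.p14, are shown because E2F factors are known to drive replication genes in late G1. The E2F letters searched on both strands were TTTCCCGC, TTTGGCGC and TTTCGCGC, and matches are in capitals. *MCM3* lies on the minus strand at chr6:52284693-52284992 with 2 matches, and *CLSPN* on the minus strand at chr1:35769929-35770228 with 1. Only promoters with a match were shown, so they do not stand for the other genes of their lists.
MCM3: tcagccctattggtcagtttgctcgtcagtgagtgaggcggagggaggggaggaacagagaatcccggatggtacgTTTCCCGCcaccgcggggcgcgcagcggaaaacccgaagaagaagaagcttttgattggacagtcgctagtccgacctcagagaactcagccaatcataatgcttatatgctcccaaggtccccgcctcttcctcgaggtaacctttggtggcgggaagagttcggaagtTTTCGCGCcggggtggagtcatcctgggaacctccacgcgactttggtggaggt
CLSPN: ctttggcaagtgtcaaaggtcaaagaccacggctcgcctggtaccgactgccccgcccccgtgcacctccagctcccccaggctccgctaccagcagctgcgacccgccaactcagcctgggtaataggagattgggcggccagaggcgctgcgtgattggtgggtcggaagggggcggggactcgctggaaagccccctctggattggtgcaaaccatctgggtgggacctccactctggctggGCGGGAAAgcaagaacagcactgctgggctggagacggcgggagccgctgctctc

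At least 1 of these 3 forms was present in 11 of the 23 licensing promoters matched in RefSeq (47.8%) and in 9 of the 28 fork promoters (32.1%), against 2.79% of all 27305 RefSeq promoters of this length and 4.52% of the 10712 of tested genes. Of the G2/M genes' 30 promoters 3 (10.0%) held it, whereas 21 held the cell cycle homology region TTTGAA, against 15.4% of all promoters and 9.41% of those of tested genes. Only 198 of the 269 called positive and 278 of the 377 called negative genes could be matched, under 80% of each. The same check over the called genes is therefore void. Of the 14392 tested genes 10712 were matched, so the shares of tested genes rest on a part of them too. Of 25 sterol and fatty acid synthesis promoters 1 (4%) held the sterol regulatory element ATCACNCCAC. It was in 0.154% of all promoters and 0.112% of those of tested genes. Of 25 integrated stress response promoters 5 (20%) held the C/EBP-ATF core TGATGNAA. That core was in 3.67% of all promoters and 1.59% of those of tested genes. A match is a run of letters and not a measured binding site.

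Recombination and Fanconi repair genes repair broken or stalled forks. Of 35, all tested, 16 were positive and 0 negative, with a median of 0.83, and 25 were positive without NAA40-KD (−dox) replicate 4. *RAD54L*, a motor protein of recombination, was at 5.45, 4.87, 5.33 and 5.11 CPM in NAA40-KD (−dox), with very little spread, and at 9.20 to 15.8 CPM in the other 12 libraries (interaction 1.42). *EXO1* (a resection nuclease, 1.64), *BRCA1* (1.46) and *GEN1* (a Holliday junction resolvase, 1.67) followed. *BRCA2* was at 12.6, 13.3, 10.7 and 3.79 CPM in NAA40-KD (−dox), with the last of these libraries below the other 3, and its interaction of 1.79 (SE 0.36) was 1.52 without it.

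Cell cycle regulators were less uniform. Of the 28 tested E2F, RB family and G1/S genes 9 were positive and 3 negative (median 0.38), and 12 and 4 without NAA40-KD (−dox) replicate 4, with *CDC25A* (a phosphatase that activates cyclin-dependent kinases, 1.25), *E2F2* (1.47), *SKP2* (0.91) and *CCNE2* (cyclin E2, 1.54) the positive ones of lowest p. Of 36 G2/M genes 9 were positive and 1 negative (median 0.56), a count that became 21 and 1 without NAA40-KD (−dox) replicate 4, as positive calls over all genes went from 4.31% to 11.9%. The proliferation marker *MKI67* was at 390, 282, 339 and 337 CPM in NAA40-KD (−dox), at 592 to 651 CPM in NAA40-KD (+dox) and at 406 to 794 CPM in the SCR line (interaction 1.18). *KIF23*, *BUB1B* and *AURKA*, which act in cytokinesis, the spindle checkpoint and spindle assembly, had 0.92, 0.92 and 0.77. Levels in bulk RNA cannot tell fewer cells in a phase from less RNA per cell in it.

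Deoxynucleotide supply and the folate and methionine cycles gave values in both directions. Of all genes 4.31% were positive and 4.91% negative at an adjusted p under 0.05. A single call of one sign in these lists is near those shares. Thymidylate synthase makes thymidylate, and the methionine cycle makes S-adenosylmethionine, the methyl donor. Of 17 deoxynucleotide genes 4 were positive and 1 negative, and 9 and 1 without NAA40-KD (−dox) replicate 4. *TYMS*, which overlaps *ENOSF1* and *TYMSOS*, was at 23.8, 21.6, 25.6 and 21.8 CPM in NAA40-KD (−dox) and at 34.6 to 57.2 CPM elsewhere, with an interaction of 1.19 (SE 0.21). *CTPS1* (CTP synthase) had 1.00, and the mitochondrial thymidine kinase gene *TK2* had −0.70.

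Among 25 tested methionine cycle, transsulfuration and cobalamin genes 1 was positive and 3 negative, with a median of −0.08, near the −0.05 of all genes. Leaving out NAA40-KD (−dox) replicate 4 gave 5 positive and 7 negative. *MTR*, methionine synthase, was at 52.4, 54.1, 45.5 and 37.9 CPM in NAA40-KD (−dox), at 104 to 109 CPM in NAA40-KD (+dox) and at 54.9 to 87.0 CPM in the SCR line, so it was low in the first group and high in the second (interaction 1.35). *MAT1A*, the liver-type methionine adenosyltransferase gene, was at 11.9, 10.7, 9.05 and 11.2 CPM in NAA40-KD (−dox), at 3.54, 4.14, 2.95 and 2.77 CPM in NAA40-KD (+dox), at 1.87, 2.23, 2.75 and 3.04 CPM in SCR (−dox) and at 2.75, 3.9, 4.16 and 2.76 CPM in SCR (+dox). Its interaction was −2.12 (SE 0.28, adjusted p = 0.000311 by edgeR), and −2.10 without the library named.

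*CTH*, which makes cysteine from cystathionine, was at 31.4, 32.7, 32.9 and 24.2 CPM in NAA40-KD (−dox) and at 18.2 to 20.4 CPM in NAA40-KD (+dox), with 18.9 to 26.0 CPM in the SCR line. Its interaction of −0.83 (SE 0.18, adjusted p = 0.00865 by edgeR) was significant and under the threshold on size. *MMAA*, for mitochondrial cobalamin handling, was at 11.6, 10.8, 10.4 and 5.6 CPM in NAA40-KD (−dox) and at 5.62 to 6.45 CPM in NAA40-KD (+dox), so the groups overlapped through 1 library. Its interaction of −1.14 (SE 0.30, adjusted p = 0.0249 by edgeR) held a SCR change of 0.47 beside −0.66 in the NAA40-KD line, and was −1.32 without that library. Of 21 folate and serine genes tested only *MTFMT*, the mitochondrial formyltransferase for initiator tRNA, passed (0.70), although 18 of the 21 values were above 0 (median 0.31), and without NAA40-KD (−dox) replicate 4 there were 4 positive and 1 negative.

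Interferon-stimulated genes that passed the test were negative. Type I interferon signals through STAT factors to a response element in the promoters of antiviral genes. Of 32 tested genes of 39 in the matrix, 0 were positive, 9 negative and 23 did not pass, 8 of the 32 had a value above 0, and the median was −0.50 (−0.47 in the NAA40-KD line and 0.01 in the SCR line), and 16 were negative and 1 positive without NAA40-KD (−dox) replicate 4. *IFIT1*, which binds foreign RNA ends, was at 27.1, 31.0, 31.1 and 16.4 CPM in NAA40-KD (−dox) and at 5.62 to 7.72 CPM in the other 12 libraries. Here replicate 4 was the lowest of its group, and the interaction of −2.10 (SE 0.26) was −2.28 without it. For *ISG15*, a ubiquitin-like modifier gene, the same library was the highest, with 343 CPM beside 116, 119 and 137, and the interaction of −2.15 was −1.63 without it. *OASL* was at 21.8 to 33.8 CPM in NAA40-KD (−dox) and 5.71 to 10.9 CPM elsewhere. Its SCR change of 0.56 was among those above 0.5 in absolute size, which 10 called positive and 42 called negative genes had.

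*ISG20*, an exonuclease gene, came to a like value by another route. It was at 9.03, 8.90, 8.10 and 16.6 CPM in NAA40-KD (−dox), overlapping the 7.61 to 12.1 CPM of the SCR line, and at 4.27, 3.48, 4.28 and 4.20 CPM in NAA40-KD (+dox), below all other libraries. Its interaction of −1.74 thus went with the low level under the (+dox) label. Of the 9 negative interferon genes, NAA40-KD (−dox) was the farthest group in 6 and NAA40-KD (+dox) in 3.

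The promoters of these 2 kinds of gene, *IFIT1* and *ISG20*, are shown with the core of the interferon-stimulated response element, GAAANNGAAA on either strand, in capitals. *IFIT1* is on the plus strand at chr10:89392373-89392672 and *ISG20* on the plus strand at chr15:88638766-88639065, both on GRCh38.p14. The core was present in 17 of 26 interferon promoters matched (65.4%). It was in 3.65% of all RefSeq promoters of this length and 2.68% of those of tested genes. Only promoters with a match were shown, so its presence in these 2 was fixed by that choice.
IFIT1: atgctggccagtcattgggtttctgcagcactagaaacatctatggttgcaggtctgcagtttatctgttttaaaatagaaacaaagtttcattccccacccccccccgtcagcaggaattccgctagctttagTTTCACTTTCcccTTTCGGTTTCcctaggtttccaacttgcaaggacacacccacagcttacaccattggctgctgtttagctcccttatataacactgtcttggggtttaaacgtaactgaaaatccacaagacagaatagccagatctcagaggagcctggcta
ISG20: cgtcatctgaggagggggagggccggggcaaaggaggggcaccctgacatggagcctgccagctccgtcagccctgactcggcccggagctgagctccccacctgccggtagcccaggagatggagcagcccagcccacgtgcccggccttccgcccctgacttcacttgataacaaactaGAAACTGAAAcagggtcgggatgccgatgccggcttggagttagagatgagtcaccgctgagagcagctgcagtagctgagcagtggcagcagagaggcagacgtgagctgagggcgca

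MHC class I genes, which present peptides to T cells, had 3 negative and 0 positive of 14 tested, with *HLA-E* at −0.82, the immunoproteasome gene *PSMB9* at −1.52 and *HLA-F* at −1.26. The list median was −0.42 and became −0.26, with 5 negative, without NAA40-KD (−dox) replicate 4. HLA genes share sequence with each other, so the split of reads between them is uncertain.

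Keratins and replication-dependent histones had the most negative medians, each over a small part of the family. Keratins are the intermediate filaments of epithelial cells. Of 19 in the matrix 13 were tested, 5 were negative and 0 positive, with a median near −1.0 (−0.81, with 8 negative, without the library named). *KRT80* was at 57.0, 48.6, 56.4 and 77.9 CPM in NAA40-KD (−dox), at 17.8 to 26.3 CPM in NAA40-KD (+dox) and at 5.86 to 18.8 CPM in the SCR line, so both NAA40-KD groups were above nearly all SCR libraries (interaction −1.71). *KRT8*, a main keratin of simple epithelium, was at 2286 to 5153 CPM in NAA40-KD (−dox), where replicate 4 was the highest, and at 1530 to 2336 CPM elsewhere, and its interaction of −1.15 was −0.82 without that library. *KRT15* and *KRT10* had −1.06 and −1.0. The epithelial marker list, which holds *KRT8*, *KRT18* and *KRT19*, moved with these values, with a summed level of 5785 to 12500 CPM in NAA40-KD (−dox) and 4203 to 6042 CPM in the other libraries, and its part in them was not tested.

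Of the 41 replication-dependent histone genes in the matrix only 10 passed the filter, so the following values are not those of the family. Of these 10, 4 were negative, and 6 without NAA40-KD (−dox) replicate 4. *H2AC6* was at 15.3, 20.3, 17.7 and 14.4 CPM in NAA40-KD (−dox), 4.70 to 5.99 CPM in NAA40-KD (+dox) and 5.94 to 9.36 CPM in the SCR line (interaction −1.76). *H2BC5* had −1.64, *H1-2* −1.44 and *H3C6* −1.19. These genes have near-identical copies, and their counts are uncertain for that reason.

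Sterol and fatty acid synthesis genes, targets of the SREBP factors, had 8 negative and 0 positive of 32 tested (median −0.57, with 17 negative without NAA40-KD (−dox) replicate 4). *INSIG1*, the sterol-sensing retention protein gene, was at 169, 184, 170 and 120 CPM in NAA40-KD (−dox) and at 51.9 to 97.7 CPM elsewhere (interaction −1.10). *SQLE* (squalene epoxidase) had −1.08 and *TM7SF2* (a sterol reductase) −1.27.

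p53 target genes had 4 negative and 1 positive of 25 (median −0.35), and 9 and 1 without NAA40-KD (−dox) replicate 4. *PLK2*, a stress-induced kinase gene, was at 312, 316, 334 and 258 CPM in NAA40-KD (−dox) and at 131 to 177 CPM in the other 12 libraries (interaction −0.88, and −0.96 without the library named). *CDKN1A*, the p21 inhibitor of cyclin-dependent kinases, was at 459 to 713 CPM in NAA40-KD (−dox), 309 to 340 CPM in NAA40-KD (+dox) and 350 to 481 CPM in the SCR line, with an interaction of −0.80. *BBC3* (PUMA, a cell death gene) was at 47.4, 47.0, 46.7 and 141 CPM in NAA40-KD (−dox), and its interaction of −1.79 was −1.22 without the last of these. *DDB2*, for repair of ultraviolet damage, had −0.64.

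In some stress-response genes the libraries labelled NAA40-KD (+dox) were the ones apart. *ATF3* was at 53.3, 49.9, 45.0 and 39.1 CPM there, below 80.0 to 100 CPM in NAA40-KD (−dox) and 57.6 to 112 CPM in the SCR line (interaction −1.15). *PPP1R15A*, which ends the integrated stress response by dephosphorylating eIF2α, was at 62.3 to 81.5 CPM in NAA40-KD (+dox) and at 93.2 to 192 CPM elsewhere (−1.07). *HSPA5* (BiP, the main chaperone of the endoplasmic reticulum) was at 918 to 929 CPM in NAA40-KD (+dox), 1193 to 1441 CPM in NAA40-KD (−dox) and 1321 to 2278 CPM in the SCR line (−0.86). In all 3 genes NAA40-KD (−dox) overlapped with SCR (−dox). *ATF3* changed by −0.93 in the NAA40-KD line and 0.22 in the SCR line. *PPP1R15A* changed by −0.72 and 0.35, and *HSPA5* by −0.50 and 0.35. Without NAA40-KD (−dox) replicate 4 the interaction of *PPP1R15A* was −0.83, under the threshold on size.

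Over the 28 tested integrated stress response and ATF4 target genes 0 were positive and 2 negative, where 4.31% and 4.91% of all genes were. Their median of −0.35 was made of −0.07 in the NAA40-KD line and 0.25 in the SCR line. That was the largest SCR median but that of the keratins (0.26). Without NAA40-KD (−dox) replicate 4 the median interaction was −0.06, with 2 positive and 5 negative. Cytosolic ribosomal protein genes likewise had a median of −0.34 from −0.15 and 0.19, with 1 positive and 0 negative of 79, and without that library, in which these genes held the highest share of counts, the median was −0.20, with 1 and 2. The positive one, *RPS23* (0.78), has many processed pseudogenes and an uncertain count. The 21 endoplasmic reticulum genes had 1 negative, the 20 cytosolic aminoacyl-tRNA synthetase genes 1 negative (*QARS1*, −0.62) and the 15 mitochondrially encoded genes 0 of either sign, with a median of 0.49. Leaving out NAA40-KD (−dox) replicate 4 gave 4 negative, 4 negative and 0 of either sign, with a mitochondrially encoded median of 0.33.

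**Figure D5:**
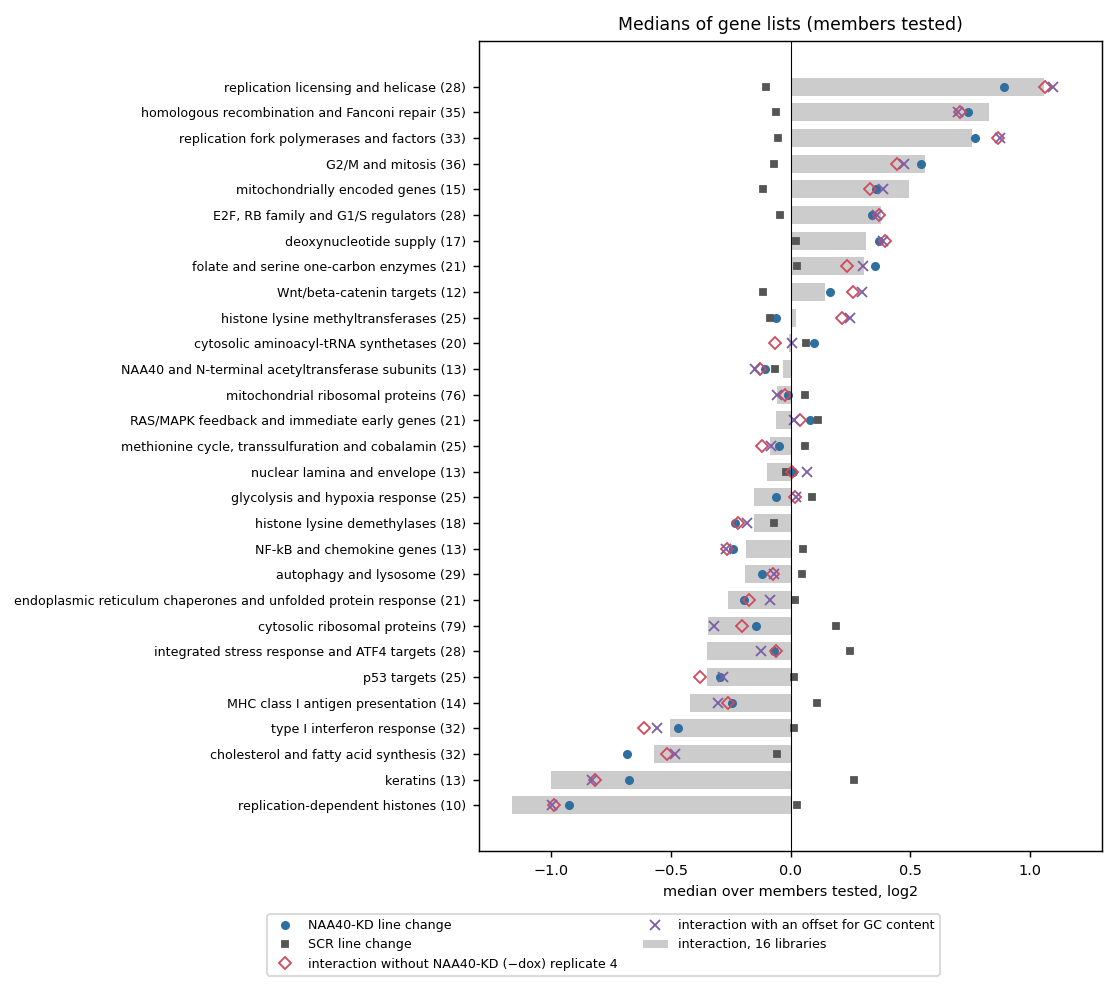
Median interaction of each of 29 gene lists over its tested members (bars, log2), with the medians of each line's change and of the interaction without NAA40-KD (−dox) replicate 4 or with an offset for GC content. Replication lists have medians up to 1.06 that hold in both alternatives, whereas the median of integrated stress response genes moves from −0.35 to −0.06 without the library.

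Growth factor signalling genes had values of both signs. Immediate early genes answer MAPK signalling within minutes. *EGR1*, such a transcription factor gene, was at 74.7, 120, 65.9 and 118 CPM in NAA40-KD (−dox) and at 208 to 438 CPM elsewhere (interaction 1.45), and *SPRY4*, a feedback inhibitor of the pathway, was at 57.9 to 79.2 and at 118 to 206 CPM (0.93). *AREG* (amphiregulin, an EGFR ligand) and *DUSP5* (a phosphatase that acts on ERK) had −1.10 and −1.17, and in both NAA40-KD (+dox) was the farthest group, at 296 to 369 and 209 to 296 CPM. Of the 21 genes of the list 2 were positive and 3 negative (3 and 3 without NAA40-KD (−dox) replicate 4). Of 12 Wnt targets tested *TCF7* (1.20) and *BMP4* (−0.88) passed (4 positive and 1 negative without that library), and of 13 NF-kB and chemokine genes 0 passed with 16 libraries and 3 in each direction without replicate 4, where 11.9% of all genes were positive and 12.3% negative.

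The other lists held few calls. Histone lysine methyltransferase genes had 3 positive and 0 negative of 25, *SUV39H2* (which methylates H3 lysine 9, 1.53), *EZH2* (the Polycomb enzyme, 0.82) and *ASH1L* (0.80), and demethylase genes 1 negative of 18 (*KDM4A*, −0.73). The methyltransferases without NAA40-KD (−dox) replicate 4 had 6 positive and 1 negative, with the median going from 0.02 to 0.21, and the demethylases 2 and 3. Of the 13 N-terminal acetyltransferase genes *NAA40* and *NAA16* (an auxiliary subunit of the NatA complex, 1.12) passed, and without that library 2 genes were positive and 1 negative. *NAA16* was at 22.1, 19.9, 18.9 and 10.1 CPM in NAA40-KD (−dox) and at 23.3 to 39.7 CPM elsewhere. The lamin gene *LMNB1*, at 73.6 to 88.3 CPM against 130 to 175 CPM elsewhere, had 0.92 and *SYNE2*, of the nuclear envelope, 1.09, and their list went from 2 and 0 of 13 to 4 and 2 without it. Of 25 glycolysis and hypoxia genes 1 was positive (*PGK1*, 0.64) and 3 were negative (*ALDOC*, −1.72, *NDRG1*, −0.82, and *SLC2A1*, −0.94). Of all genes 4.31% were positive and 4.91% negative. The list had 3 of each sign without NAA40-KD (−dox) replicate 4. Autophagy and lysosome genes had 4 negative of 29 (*GABARAPL1*, *WIPI1*, *ATG13* and *TFE3*, −0.62 to −0.96), and mitochondrial ribosomal protein genes 1 of each sign of 76 (*MRPL35*, 0.95, and *MRPL10*, −0.61). Without that library the counts were 2 positive and 8 negative for the first and 4 of each sign for the second.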

How the data were processed

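Gene-level read counts of the 16 libraries were used as deposited. The authors made these counts with STAR and featureCounts, for which no versions are given in the sources used here. The study's methods name the mouse build mm10 and the submitters' processing notes list hg38 and GRCm38, but all 33937 identifiers in the matrix are human Ensembl genes. The methods and the labels also name different RNA and library kits, and whether the counting used strand is not given in the sources used here. Every column was matched to a sample (0 left over), and groups came from the labels, which number the replicates. The study's methods call the RNA samples of a group independent. Where separate cultures are not stated, p-values measure the spread between these samples.

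Genes with CPM above 1 in at least 4 libraries were fitted with TMM scaling and 1 mean per group in edgeR 4.0.16 (R 4.3.3) by the quasi-likelihood test with Benjamini-Hochberg adjustment over all tested genes. Calls needed an adjusted p under 0.05 and, where stated, an absolute log2 value above 1. CPM in the text are TMM-normalized, except in the filter and for *CAPN13* at its limit, where counts were scaled to library size alone. The levels printed are not divided by length, so they compare libraries and not genes. Gene symbols, positions, GC content and lengths came from GENCODE release 29 on GRCh38 and promoters from RefSeq. Named genes were *NAA40*, 4 genes of the study (*MAT1A*, *CTH*, *MMAA*, *TYMS*), the 12 largest positive and 12 largest negative interactions among called genes with a mean of at least 5 CPM in a group and no overlap between the NAA40-KD groups, and up to 4 genes of lowest p with an adjusted p under 0.05 in each of 29 lists. Some genes meeting this rule are not reported here, and 11 of the negative 12 are named. The question, members and lists were chosen with earlier results of these data known. On simulated data with 14230 genes the test recovered 42 of 99 genes changed by 1 on the log2 scale and 90 of 100 changed by 2. It called 9 of 14031 unchanged ones. Simulated counts were drawn independently for each gene and library, with no library apart as NAA40-KD (−dox) replicate 4 is. These rates therefore need not hold for the real data. No 2 libraries of the same group agreed within sampling noise (chi-square over degrees of freedom 1.8 to 161). The values were 1.8 to 4.87 in NAA40-KD (+dox) and 2.6 to 161 in NAA40-KD (−dox). They were 9.57 to 27.1 in SCR (+dox) and 10.9 to 45.8 in SCR (−dox). Pairs from different groups were not compared in this way. Alternatives were DESeq2 1.42.0, limma-voom (limma 3.58.1) with and without library quality weights, other scalings and filters, a replicate block, an offset for GC content and leaving out each library.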

Additional observations from a re-analysis of the deposited data

Results flagged for a closer look

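Single libraries far from the other 3 of their group were looked for in 128 groups of 4 with Dixon's ratio of gap to range, and 9 were found, where chance alone gives about 1 group in 20. NAA40-KD (+dox) replicate 1 had a total of 11065606 counts beside 13414835 to 13855486 in its group. NAA40-KD (−dox) replicate 4 was at 103.5 on the first principal component beside 6.87 to 8.02, and its root mean square deviation was 0.694 log2 units beside 0.279 to 0.303. The same library was apart for *ESCO2* (4.78 CPM beside 16.2 to 17.9), *OASL* (33.8 CPM beside 21.8 to 23.4) and *ISG15* (343 CPM beside 116 to 137). SCR (−dox) replicate 2 was apart for *MMS22L* (40.7 CPM beside 52.8 to 53.4), *BRCA2* (20.4 CPM beside 26.6 to 27.7) and *CLIC3* (11.5 CPM beside 6.55 to 7.11).

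The interaction itself is a test of a difference between the lines' changes. It gave 1.46 on the log2 scale for *NAA40* and 646 genes past both thresholds by edgeR's quasi-likelihood test.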

How the results depend on the processing

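No result changed sign past its threshold under any alternative run, and the median interaction over all genes moved by at most 0.053. For a list median the threshold was its spread, the pooled SD over the libraries of a group. Medians smaller than their spread could change sign. That of glycolysis, with a spread of 0.159, went from −0.15 to 0.018 without NAA40-KD (−dox) replicate 4. Counts past both thresholds were 646 as reported, 758 with DESeq2, 646 with limma-voom, 888 with library quality weights, 642 with library-size scaling, 700 with no filter, 789 with an offset for GC content, 753 with that offset and NAA40-KD (−dox) replicate 4 left out (added after the data were seen), and 477 to 733 when each library was left out in turn. At an adjusted p under 0.01 with the threshold on size there were 326 and at an unadjusted p under 0.05 there were 1007, beside 17 in the SCR line. Without the threshold on size the count of 1327 moved to 4696 with quality weights, in which NAA40-KD (−dox) replicate 4 weighed 0.0376, to 4181 with the GC offset, to 4448 with that offset and that library left out, and to between 820 (without NAA40-KD (+dox) replicate 3) and 3467 (without NAA40-KD (−dox) replicate 4). It was 848 without NAA40-KD (+dox) replicate 4 and 865 without SCR (−dox) replicate 1. The cause of these moves was not tested. The NAA40-KD line count of 754 was 497 with CPM above 1 in every library and 600 to 870 with a library left out.

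With a replicate block 622 genes passed both thresholds and 1217 the adjusted p alone. Replicate numbers were shared by the groups without a stated pairing, 10 of 24 same-number pairs correlated above 0.1 (range −0.416 to 0.646), and 6 of 16 libraries were closest to their own number. All 4 same-number pairs of SCR (+dox) with NAA40-KD (−dox) were above 0.1 (0.2 to 0.646) and 3 of the 4 within the NAA40-KD line, but not every pair was, so the numbers were not taken as pairs. Of the 99 named results 12 lost their adjusted p under 0.05 with no filter, and 0 to 10 with a library left out.

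List medians that moved beyond their spread under quality weights were those of fork factors (0.92), MHC class I (−0.28), glycolysis (0.063), histone methyltransferases (0.20), ribosomal proteins (−0.16), Wnt targets (0.40) and autophagy (−0.078). Under the GC offset they were endoplasmic reticulum genes (−0.085), MHC class I (−0.30), glycolysis (0.021), histone methyltransferases (0.25), Wnt targets (0.30) and autophagy (−0.067), and under limma-voom deoxynucleotide supply (0.50). With a library left out the medians ranged from −0.51 to −0.062 for the integrated stress response, −0.48 to −0.26 for MHC class I, −0.22 to 0.018 for glycolysis, −0.10 to 0.21 for histone methyltransferases and −0.24 to −0.075 for autophagy.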
